A study of Mus musculus with 8 samples.

Results

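The cytosolic ribosomal protein genes were examined by DNA methylation in mouse embryonic stem cells (ESCs). The set was defined by gene symbol: Rpl or Rps followed by a digit, the Rplp stalk genes and Rpsa. A window of 250 bases belonged to the set when the transcription start site (TSS) nearest to its centre was that of a protein-coding transcript of such a gene. By this rule 288 of the 54235 windows in the deposited tables were members, and they fell to 69 of the 84 annotated genes. The cells were transiently transfected with scrambled siRNAs (CTR KD) or with siRNAs targeting mouse YAP (YAP KD), the co-activator held back by the Hippo pathway. Both were sampled undifferentiated (T0) and after 4 days of differentiation toward neuroectoderm as serum-free embryoid bodies (T4), with 2 samples in each of the 4 groups and 8 in all. Every group had thus received an siRNA, and the study describes the loss of YAP as temporary, so that YAP KD at T4 refers to cells with an earlier reduction. The DNA was enriched with a capture panel before bisulfite sequencing, so that a window is present only where the panel and the reads reached it.

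The ribosome is built from a small (40S) and a large (60S) subunit, and the Rps and Rpl genes encode their proteins. These genes are short, are among the most highly expressed in any growing cell and usually start within a CpG island, a stretch rich in the CG dinucleotide that is normally free of methylation. Their mRNAs begin with a pyrimidine tract through which translation responds to nutrients. Ribosomal protein mRNAs have also been copied back into mammalian genomes many times, leaving intronless pseudogenes that resemble the exons of the parent gene. Methylation inside the body of a gene is distinct from methylation of its promoter and is common in active genes.

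Of the 69 genes, 34 of 42 annotated genes encoded large subunit proteins, 26 of 31 small subunit proteins and 3 of 3 the proteins of the acidic stalk, to which translation factors bind. A further 5 of 7 were close paralogs (Rpl7l1, Rpl22l1, Rpl36al, Rpl39l and Rps4y2), and 1 was Rps19bp1, whose symbol meets the rule although its product is a partner of Rps19 and not a part of the ribosome. The 15 genes with no member window included the X-linked Rps4x, Rpl36a and Rpl39 and the paralogs Rpl3l and Rps27l. Of the 15, 5 had no window nearest to any of their transcripts, among them Rps4x, Rpl39 and Rpl3l. The rest had windows nearest only to transcripts not annotated as protein-coding, which the rule leaves out. Rpl35a had the most windows, 11, and 12 genes had 1, with a median of 4 per gene. The windows lay close to promoters: 264 of them (91.7%) were within 1000 bases of the TSS, against 72.1% of all windows, and 24 lay farther away.

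The sequences below are the windows on which the results turn, from the mm9 assembly and written 5′ to 3′, with every CpG, the site at which methylation was read, in capitals. The first is the Rpl31 exon window that gained methylation, and the second is the promoter of the same gene for comparison of its CpG density. The exon window held 10 CpGs and the promoter stretch of the same length held 21.
Rpl31 exon, chr1:39427751-39428000, plus strand: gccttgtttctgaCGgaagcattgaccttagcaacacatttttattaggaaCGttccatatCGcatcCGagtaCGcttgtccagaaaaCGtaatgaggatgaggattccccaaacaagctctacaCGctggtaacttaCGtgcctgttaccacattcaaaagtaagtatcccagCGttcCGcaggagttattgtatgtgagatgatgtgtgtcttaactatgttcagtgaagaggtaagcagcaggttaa
Rpl31 promoter, chr1:39424446-39424695, plus strand: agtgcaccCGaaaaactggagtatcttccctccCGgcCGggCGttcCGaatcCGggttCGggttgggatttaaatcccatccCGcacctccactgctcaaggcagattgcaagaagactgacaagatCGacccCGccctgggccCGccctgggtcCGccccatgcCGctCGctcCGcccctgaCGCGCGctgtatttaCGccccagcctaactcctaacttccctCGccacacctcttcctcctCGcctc

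The next 2 are coding exon windows of a large and a small subunit gene that also gained methylation, with 6 and 5 CpGs.
Rpl35a exon, chr16:33058751-33059000, plus strand: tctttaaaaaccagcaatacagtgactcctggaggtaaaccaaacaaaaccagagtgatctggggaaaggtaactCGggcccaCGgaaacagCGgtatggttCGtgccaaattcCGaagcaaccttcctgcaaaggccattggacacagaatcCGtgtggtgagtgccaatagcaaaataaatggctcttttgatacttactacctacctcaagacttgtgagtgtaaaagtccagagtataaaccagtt
Rps7 exon, chr12:29319001-29319250, minus strand: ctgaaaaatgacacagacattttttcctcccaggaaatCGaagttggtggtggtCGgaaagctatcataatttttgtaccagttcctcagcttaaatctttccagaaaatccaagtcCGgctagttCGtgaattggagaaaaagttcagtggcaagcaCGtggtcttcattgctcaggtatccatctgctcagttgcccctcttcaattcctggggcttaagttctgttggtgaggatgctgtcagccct

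The last 3 belong to paralogs. The Rpl7l1 exon was called in YAP KD differentiation, the upstream window nearest to Rpl7l1 lies in a coding exon of the neighbouring gene BC032203, and the Rpl39l stretch of 193 bases is the part before the TSS of the window that lost methylation.
Rpl7l1 exon, chr17:46917251-46917500, minus strand: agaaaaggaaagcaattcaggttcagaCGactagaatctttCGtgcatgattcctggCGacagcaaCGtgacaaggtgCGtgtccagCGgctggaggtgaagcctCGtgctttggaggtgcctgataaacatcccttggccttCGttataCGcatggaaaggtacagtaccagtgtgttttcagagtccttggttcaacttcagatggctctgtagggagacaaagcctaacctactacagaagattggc
BC032203 exon nearest to Rpl7l1, chr17:46938376-46938625, minus strand: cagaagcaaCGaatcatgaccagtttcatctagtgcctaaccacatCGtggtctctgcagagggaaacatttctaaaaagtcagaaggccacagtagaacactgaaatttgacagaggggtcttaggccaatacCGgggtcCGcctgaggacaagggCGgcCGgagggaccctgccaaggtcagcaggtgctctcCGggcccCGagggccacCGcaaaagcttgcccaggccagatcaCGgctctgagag
Rpl39l promoter, chr16:10170126-10170318, plus strand: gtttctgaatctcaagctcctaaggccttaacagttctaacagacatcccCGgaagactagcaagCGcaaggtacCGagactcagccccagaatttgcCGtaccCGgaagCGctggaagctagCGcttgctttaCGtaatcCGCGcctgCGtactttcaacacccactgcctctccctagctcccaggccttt

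The deposited tables gave, for each window, the authors' methylation difference in percentage points with a p-value and a q-value from methylKit, for group against group. They carry no value per sample, so that the values below are differences between groups of 2 samples and not levels in single samples. A differentiation difference is T4 minus T0, and a knockdown difference is the YAP KD value less the CTR KD value. A standard error (SE) was derived from each difference and its p-value and covers only the error the authors' test saw. A window was called a differentially methylated region (DMR) at q at or below 0.05 with a difference over 10 points in size, and a gain or loss below means q at or below 0.05 in the stated direction.

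The first question was what differentiation does to these genes in CTR KD cells. Their promoters hardly moved, whereas coding exons farther inside the genes gained methylation. Of 266 member windows, 7 were called, all of them gains, assigned by nearest TSS to 4 genes: Rpl31, Rpl35a, Rps7 and Rpl7l1. The called pair assigned to Rpl7l1 lies outside that gene, in an exon of its neighbour BC032203. This is 2.63% of the member windows, beside 3.17% of all 46579 windows called in either direction, and by direction 0.958% of all windows were called gains and 2.21% called losses. At q at or below 0.05 without the size limit, 16 member windows (6.02%) gained and 2 (0.752%) lost methylation, against 4.73% and 9.57% of all windows. The median difference over member windows was 0.05 points (range -5.69 to 23.1) and that of all windows was -0.07. A difference within 1 point was found at 86.1% of member windows and at 68.1% of all windows. Of the 68 genes with a window in this table, 44 had every window within 1 point and 55 had no window past the q threshold.

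In YAP KD differentiation the windows that gained again lay mostly in exons. Of 258 member windows, 3 were called, namely a gain in Rpl31, a gain in Rpl7l1 and a loss at the promoter of Rpl39l. They make up 1.16% of the member windows, beside 3.85% of all 42770 windows, of which 0.505% were called gains and 3.35% called losses. With no size limit 19 member windows (7.36%) gained and 3 (1.16%) lost methylation, against 3.42% and 12.7% of all windows. The median was 0.05 points (range -10.1 to 15.3) for member windows and -0.17 for all windows. Within 1 point lay 84.9% of member windows and 66.7% of all windows. Of 64 genes, 43 had every window within 1 point and 51 had none past the q threshold.

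**Figure D1:**
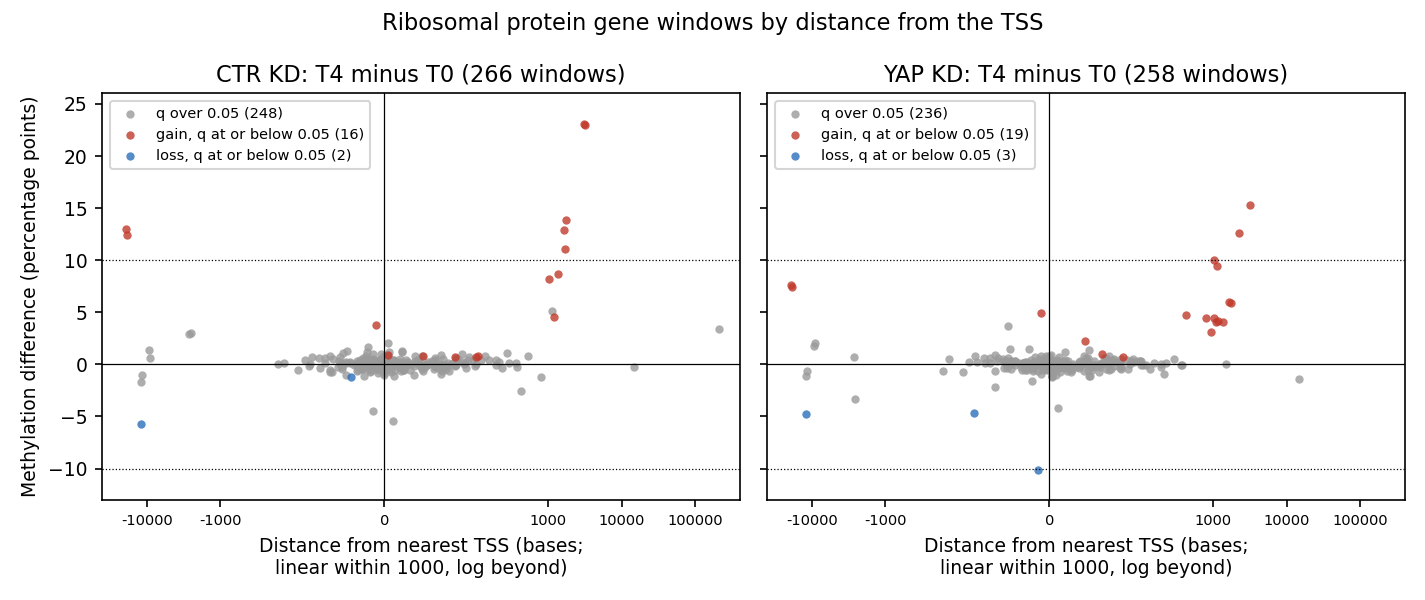
Methylation difference (T4 minus T0, percentage points) of each ribosomal protein gene window against its distance from the nearest TSS, for CTR KD (266 windows) and YAP KD (258 windows); the distance axis is linear within 1000 bases and logarithmic beyond, and dotted lines mark 10 points. Most windows around the TSS lie close to 0, with exceptions that include the called Rpl39l loss in YAP KD. Those with the highest gains lie beyond 1000 bases downstream or far upstream.

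The share of windows that changed differed with the distance from the TSS. Within 250 bases of the TSS the median difference was 0.03 points over 162 windows in CTR KD and 0.00 points over 153 windows in YAP KD. There 90.1% and 90.2% of the windows stayed within 1 point, against 82.1% and 81.9% of all windows at this distance. Gains passed the q threshold at 3 of these windows in CTR KD (1.85%) and at 2 in YAP KD (1.31%). In each knockdown 1 window lost methylation (0.617% and 0.654%). Of all windows at this distance, 2.55% gained and 4.68% lost in CTR KD, and 1.80% gained and 6.03% lost in YAP KD. Between 250 and 1000 bases, 3 of 84 windows gained in CTR KD, and 5 of 84 gained and 1 lost in YAP KD. The shares that gained, 3.57% and 5.95%, stand beside 2.91% and 2.19% of all windows at this distance, of which 7.82% and 10.5% lost. Beyond 1000 bases upstream, 2 of 9 windows gained and 1 lost in each table. The gains were the overlapping BC032203 pair, which lies outside Rpl7l1. Of all windows this far upstream, 9.37% gained and 18.4% lost in CTR KD, and 6.53% gained and 23.8% lost in YAP KD. Beyond 1000 bases downstream the median was 8.72 points over 11 windows in CTR KD and 5.17 points over 12 windows in YAP KD. Of these, 8 gained in CTR KD and 10 in YAP KD, with 0 losses in either by methylKit. Of all windows at this distance downstream, 10.5% gained and 19.1% lost in CTR KD, and 7.57% gained and 25.8% lost in YAP KD. The 8 and 10 windows fell to a few genes, and neighbouring windows overlap, so that they are not independent observations.

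By annotation most gains lay in exons. Of 38 coding exon windows, 12 gained in CTR KD and 14 gained in YAP KD, with 0 losses in both tables. Among all coding exon windows of the series, 680 of 9295 gained and 1053 lost in CTR KD, and 462 of 8512 gained and 1252 lost in YAP KD. Introns held 3 gains among 87 member windows in CTR KD (3.45%) and 2 among 86 in YAP KD (2.33%), near the 4.64% and 3.27% of all intron windows. UTR windows, 52 in CTR KD and 46 in YAP KD, held 0 gains and 0 losses by methylKit at q at or below 0.05, where 2.29% and 1.64% of all UTR windows gained and 4.32% and 5.62% lost. Intergenic windows, which here are mostly the sequence just before the TSS, held 0 gains, with 2 losses among 81 in CTR KD and 3 among 80 in YAP KD. Of all intergenic windows 4.20% and 3.10% gained and 11.0% and 13.9% lost.

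**Figure D2:**
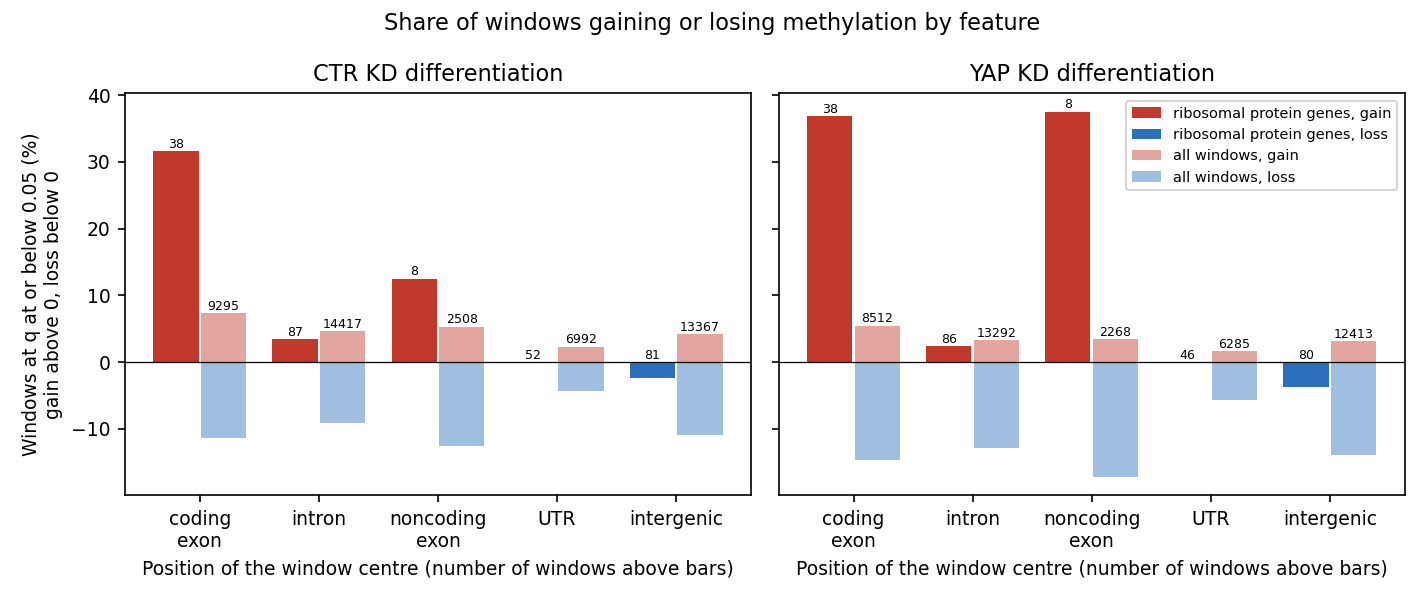
Percentage of windows at q at or below 0.05, gains drawn above 0 and losses below, by position of the window centre, for ribosomal protein gene windows (dark) and all windows (pale); the number of windows stands above each pair of bars. Among member windows of coding exons there were 12 gains of 38 in CTR KD and 14 of 38 in YAP KD, and no bar for losses.

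Coding exons more than 1000 bases from the TSS held most of the called gains. All 8 such member windows gained in CTR KD (4.55 to 22.9 points, median 11.7), while 424 of the 3324 windows of this class in the whole series gained and 577 lost. In YAP KD 9 of 10 gained, the exception being an Rpl15 window at 0.08 points, while 286 of 3073 in the series gained and 718 lost. A pair of the windows in each table lies in BC032203 rather than in a ribosomal protein gene. With these set aside, 6 of 6 windows gained in CTR KD and 7 of 8 in YAP KD. The nearest-TSS rule leaves out exons that lie closer to a noncoding transcript of the same gene. Taking all coding exon windows of member genes that lie over 1000 bases from the gene's own protein-coding TSSs, 10 of 13 gained in CTR KD and 10 of 15 in YAP KD, again with 0 losses. Within 1000 bases 5 of 59 gained in CTR KD and 6 of 56 in YAP KD.

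Rpl31, which encodes a protein of the large subunit near the exit of the nascent chain, had the largest gain of all members. In the exon window printed above, 3180 bases from the TSS, methylation rose by 22.9 points in CTR KD (SE 2.05, methylKit q = 1.52e-26) and by 15.3 points in YAP KD (SE 1.97, q = 5.54e-13). The overlapping intron window at chr1:39427626-39427875 rose by 23.1 points in CTR KD (SE 2.25, q = 2.76e-22) and was not listed for YAP KD. At T0 the exon window differed between the knockdowns by -2.28 points (SE 1.62, q = 0.646), and it was not listed in the T4 table. The 6 other Rpl31 windows, from -320 to 805 bases around the TSS, moved by -0.75 to 0.09 points in CTR KD.

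Rpl35a, also of the large subunit, was the member with the most windows and with the most varied behaviour. Around its TSSs 6 windows differed by 0.01 to 1.19 points in CTR KD. The coding exon window at 1772 bases rose by 13.9 points in CTR KD (SE 1.55, q = 4.00e-17) and by 5.91 points in YAP KD (SE 1.27, q = 4.90e-05). The overlapping window at chr16:33058626-33058875, with its centre in a noncoding exon, rose by 12.9 points in CTR KD (SE 1.38, q = 7.82e-19) and by 6.03 points in YAP KD (SE 1.19, q = 7.24e-06). At both windows the knockdowns differed little before differentiation, by -0.42 and 0.16 points at T0, neither past the q threshold. After differentiation the second was lower in YAP KD, with a difference of -5.68 points (SE 1.63, q = 0.0398), and the first was not listed at T4.

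A second site in Rpl35a lay nearer to the TSS and gave its larger value in YAP KD. At chr16:33058126-33058375, 1147 bases from the TSS, YAP KD cells were lower at T0, with a difference of -8.17 points (SE 2.13, q = 0.0366), and gained 9.44 points on differentiation (SE 2.19, q = 0.000214). CTR KD cells gained 5.16 points there (SE 2.58, q = 0.163), which did not pass, and the T4 difference was -4.11 points (SE 2.64, q = 0.552). The overlapping window at chr16:33058001-33058250 was also lower in YAP KD at T0 (-9.70 points, SE 2.38, q = 0.0226) and gained 9.97 points in YAP KD (SE 2.45, q = 0.000522), just under the size limit for a call. The YAP KD samples at T0 enter both of these differences. These were the only member windows past the q threshold at T0.

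Some small subunit genes also gained methylation in exons. The single window of Rps7, a coding exon 1692 bases from the TSS, rose by 11.0 points in CTR KD (SE 1.34, q = 1.52e-14), was unlisted in YAP KD and at T4, and differed by 0.77 points at T0 (q = 0.697). Rps15, at the face between the subunits, rose by 8.72 points in CTR KD (SE 1.31, q = 1.35e-09) and by 4.09 points in YAP KD (SE 1.11, q = 0.00203) at chr10:79756626-79756875, the largest uncalled gain in CTR KD. Rps28 rose by 8.17 points in CTR KD (SE 0.99, q = 1.35e-14) and by 4.43 points in YAP KD (SE 0.911, q = 1.96e-05) at chr17:33960126-33960375. In Rps26, which contacts mRNA upstream of the decoding site, the window at chr10:128062251-128062500 rose by 4.55 points in CTR KD (SE 0.53, q = 9.26e-16) and by 4.17 points in YAP KD (SE 0.537, q = 5.68e-13). Rps26 and Rps28 illustrate the contrast within a gene, since their windows within 1000 bases of the TSS differed by 0.18 to 0.72 points in CTR KD.

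Rpl27, of the large subunit, gained 3.73 points in CTR KD (SE 0.656, q = 3.55e-07) and 4.89 points in YAP KD (SE 0.637, q = 1.08e-12) in a coding exon at chr11:101304751-101305000. This window counts as a promoter window because it lies at -50 bases from an annotated internal start of the gene. The remaining gains past the q threshold were small. In CTR KD they were between 0.73 and 0.88 points in Rpl22, Rpl36, Rps15 and Rps4y2. In YAP KD they included Rplp1, a stalk protein gene, at 2.22 points (q = 0.0288), Rps15 at 3.08 and 4.08 points, and Rps4y2 at 0.72 and 1.00 points.

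Losses were few and lay outside the exons. Rpl39l, a paralog of Rpl39 known for its expression in the male germ line, was the only member with a called loss: the window over its promoter fell by 10.1 points in YAP KD (SE 1.82, q = 6.37e-07), just past the size limit. In CTR KD the same window differed by -4.43 points (SE 1.89, q = 0.0892), and the change did not differ between the knockdowns past the threshold (-5.70 points, z test FDR = 0.366). Between the knockdowns it differed by 4.85 points before differentiation (q = 0.304) and by -0.54 points after it (q = 0.890). The overlapping window after it differed by -4.16 points in YAP KD (q = 0.247), so that the call rests on a single window. The losses past the q threshold numbered 2 in CTR KD and 3 in YAP KD, and 1 of them in each knockdown was an intergenic window over 1000 bases from the TSS that is not named here. Rps21 fell by 1.18 points at its promoter in CTR KD (q = 0.0393), and Rpl26 fell by 4.63 points in YAP KD (q = 0.0312) at -459 bases from its TSS, where CTR KD differed by -0.16 points.

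The paralog Rpl7l1, whose product acts in large subunit assembly, carried 10 windows. Those around its own TSS differed by -0.68 to 0.60 points in CTR KD. The exon window at 2229 bases rose by 12.6 points in YAP KD (SE 4.18, q = 0.0164) and was not listed in the other 3 tables, and with a doubled SE its p was 0.131. The pair of called CTR KD windows assigned to Rpl7l1 lay upstream, at -18771 and -18896 bases, in an exon of BC032203 and rose by 12.4 points (SE 1.54, q = 6.74e-14) and 13.0 points (SE 1.38, q = 5.90e-19). In YAP KD they rose by 7.42 points (SE 1.43, q = 4.17e-06) and 7.59 points (SE 1.26, q = 5.77e-08), and at T4 they differed by -3.85 and -4.82 points without passing the threshold. They belong to the set by distance alone. Rpl10, the only X-linked member with windows, differed by -0.56 to 0.31 points in CTR KD over its 5 windows, all near its promoter.

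**Figure D3:**
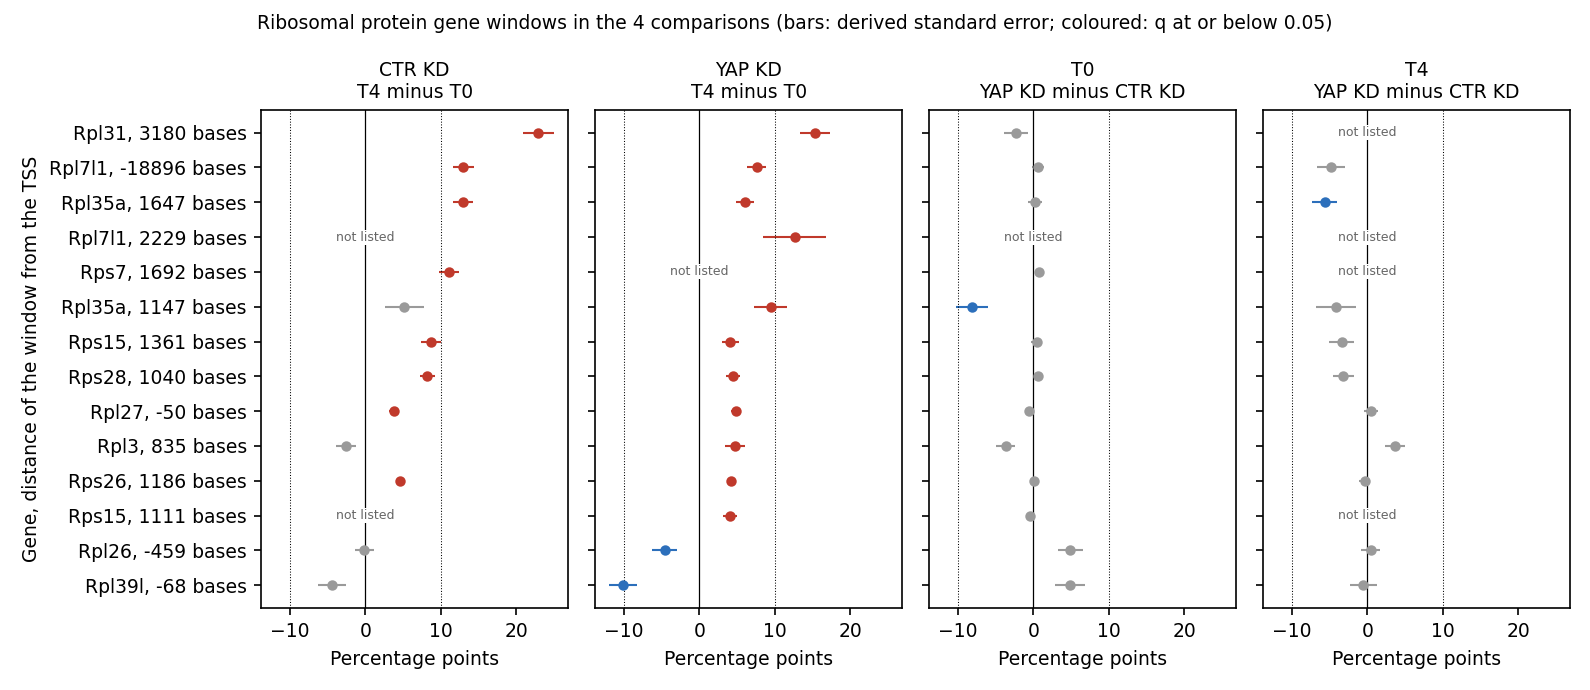
Methylation difference with its derived SE at 14 windows past the q threshold with more than 3.5 points of change in a differentiation table (1 window per overlap, intergenic windows beyond 1000 bases left out), with the gene and the distance from the nearest TSS on the vertical axis, in the 4 comparisons (percentage points); red and blue mark differences above and below 0 at q at or below 0.05, and dotted lines mark 10 points. In both differentiation panels the listed exon windows lie to the right of 0, apart from Rpl3 in CTR KD, and at T0 and T4 most differences lie within 5 points of 0.

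Most of the coding exon windows that gained have copies elsewhere in the genome. A window was said to have a similar sequence elsewhere when at least 100 bases of it matched another locus at 90% identity or more. This held for 45 of the 288 member windows. In CTR KD 10 of 41 such windows gained and 4 were called, and among the 225 without a similar sequence 6 gained and 3 were called. In YAP KD 14 of 43 with and 5 of 215 without a similar sequence gained. Among coding exon windows, 9 of 24 with and 3 of 14 without a similar sequence gained in CTR KD. The YAP KD counts were 12 of 25 and 2 of 13. The gaining coding exon windows without a similar sequence were the BC032203 pair in each knockdown and, in CTR KD, an Rpl22 window at 0.88 points. The Rpl31 exon window had 19 similar stretches (best identity 99.2%), that of Rpl35a had 25 (99.3%), that of Rps7 had 18 (99.3%) and that of Rps28 had 10 (100%). Windows without such a stretch also gained: the overlapping Rpl31 intron window, the YAP KD gains of Rpl35a at 1022 and 1147 bases and the BC032203 exon. Of their 31-base words, 22.3% in the Rpl31 intron window, 2.27% in the Rpl35a windows and 0% in the BC032203 exon occurred elsewhere too. All 6 CpGs of the Rpl31 intron window lie in the part it shares with the Rpl31 exon window. Its gain was therefore read at sites that the exon window also holds, and is not a separate observation. Over all coding exon windows of the series that share at least a 31-base word with another locus, 145 of 1525 gained and 230 lost in CTR KD, while 10 of 31 such member windows gained and 0 lost. The tables hold no read alignments, and whether reads from pseudogene copies contributed was not tested.

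The next question was whether YAP KD changed these genes at a fixed time. At T0, 0 of 270 member windows were called, beside 0.0867% of all 47315 windows (0.0676% higher and 0.019% lower in YAP KD). By methylKit 28 of them (10.4%) had an unadjusted p under 0.05, against 10.01% of all windows, and 17 of the 28 were higher in YAP KD. The median difference was -0.03 points (range -9.70 to 5.37), and 90.7% lay within 1 point. Only the pair of Rpl35a windows described above passed the q threshold, both lower in YAP KD, beside 0.389% of all windows in either direction and 0.0782% lower. Next in size were 1 Rpl26 window upstream of the TSS, at 4.91 points, and the 2 Rpl39l promoter windows, at 5.37 and 4.85 points, none past the threshold.

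At T4 the differences were as small. Of 247 member windows 0 were called, beside 0.32% of all 42803 windows, of which nearly all were lower in YAP KD (0.292% lower and 0.028% higher). By methylKit 28 (11.3%) had an unadjusted p under 0.05, against 11.2% of all windows, and 18 of these were lower in YAP KD. The median was -0.05 points (range -5.68 to 7.40), and 89.1% lay within 1 point. The Rpl35a window at 1647 bases was the only member past the q threshold, lower in YAP KD, beside 1.33% of all windows in either direction and 1.14% lower. The highest value, 7.40 points (SE 2.52, q = 0.121), was at the Rpl39l window just after the TSS.

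The differentiation changes of the knockdowns were then compared directly, by a z test of the YAP KD change minus the CTR KD change with Benjamini-Hochberg adjustment (false discovery rate, FDR) over all 38549 windows in both tables. Of 243 member windows in 63 genes, 4 passed, beside 1.28% of all windows (1.08% lower and 0.205% higher in YAP KD). The median difference between the changes was -0.10 points for member windows and -0.15 for all windows, and 53.1% of member windows and 56.8% of all windows were lower in YAP KD. At an unadjusted p under 0.05 there were 32 member windows (13.2%, against 11.3% of all windows), of which 24 were lower in YAP KD (75.0%, against 72.3% of all such windows).

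The 4 windows lay in 2 large subunit genes and went opposite ways. In Rpl35a the gain was smaller in YAP KD, by -7.99 points (95% interval -11.9 to -4.06, FDR = 0.0117) at the coding exon window and by -6.90 points (-10.5 to -3.34, FDR = 0.0194) at the overlapping window. In Rpl3, which encodes a protein beside the peptidyl transferase centre, the change was higher in YAP KD. At chr15:79912876-79913125, in a coding exon 835 bases from the TSS, CTR KD differed by -2.59 points (SE 1.28, q = 0.159) and YAP KD rose by 4.73 points (SE 1.35, q = 0.00404). The difference of these changes was 7.31 points (3.66 to 11.0, FDR = 0.0140). The overlapping Rpl3 window differed by -1.20 points in CTR KD (q = 0.468) and rose by 4.50 points in YAP KD (q = 0.000554), a difference of 5.70 points (2.67 to 8.72, FDR = 0.0257). The knockdowns differed at the first Rpl3 window by -3.66 points at T0 and 3.65 points at T4, neither past the q threshold, and both windows had 14 similar stretches elsewhere (best identity 100% and 99.4%). With doubled standard errors 0 of the 4 passed. Under that setting 0 of all windows passed, so it does not set these 4 apart from the rest.

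**Figure D4:**
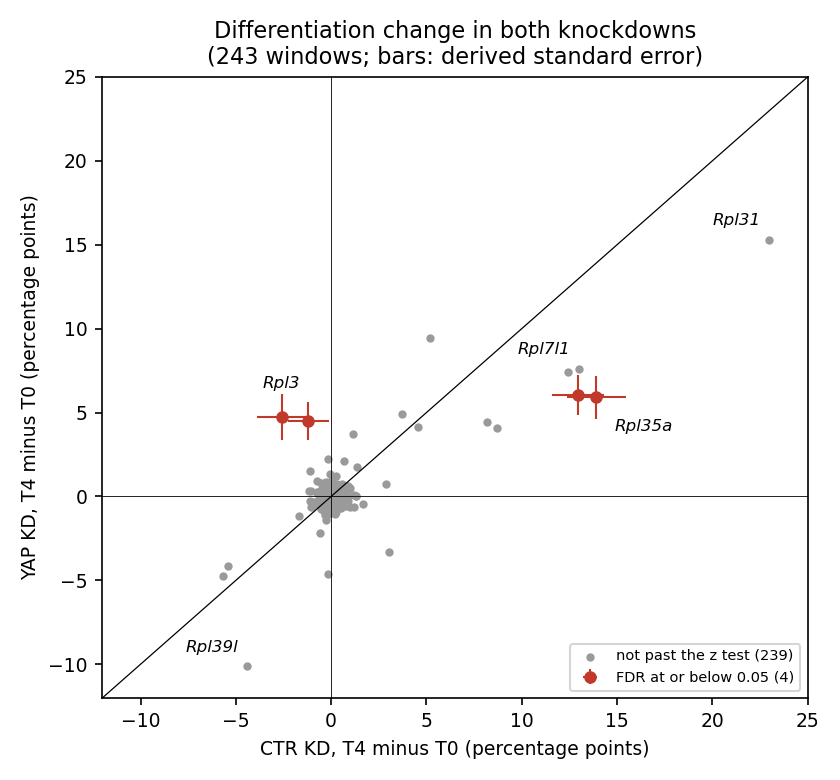
Differentiation change in YAP KD against that in CTR KD (percentage points) for the 243 ribosomal protein gene windows in both tables, with the line of equal change; red points with derived SE bars passed the z test at an FDR at or below 0.05. The 2 red Rpl35a points lie below the line and the 2 red Rpl3 points above it, while most windows crowd around 0.

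For Rpl31 the difference between the changes was -7.66 points (-13.2 to -2.08) with an FDR of 0.190. Those of Rps15 (-4.63 points, -8.00 to -1.27, FDR = 0.187), Rps28 (-3.75 points, -6.38 to -1.11, FDR = 0.163) and the second BC032203 window (-5.40 points, -9.07 to -1.74, FDR = 0.136) likewise did not pass. Rps26 and Rpl27 differed by -0.39 and 1.15 points (FDR = 0.917 and 0.711). The intervals cover the derived errors of single windows and are not adjusted for the number of windows tested.

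Parts of the same genes that the nearest-TSS rule assigned to noncoding transcripts gave further values. In Rpl3 the windows at chr15:79910751-79911000 and chr15:79910876-79911125, in and beside a coding exon, rose by 22.6 and 23.2 points in CTR KD (q = 6.38e-25 and 1.54e-23) and by 12.4 and 12.0 points in YAP KD (q = 3.28e-10 and 2.80e-09). There YAP KD was lower at T4, with differences of -11.5 points (SE 2.77, q = 0.00675) and -11.9 points (SE 2.85, q = 0.00624), the only windows inside ribosomal protein genes called at T4. The changes differed by -10.2 and -11.2 points (z test FDR = 0.0248 and 0.0155), the opposite direction to the Rpl3 exon nearer the TSS, and the windows had 27 and 10 similar stretches at up to 100% identity. In Rps18, a window at chr17:34089001-34089250 rose by 14.1 points in CTR KD (q = 1.60e-12) and by 4.39 points in YAP KD (q = 0.0385), and was lower in YAP KD at T4 (-8.93 points, q = 0.00589). A UTR window of Rpl22 with no similar sequence elsewhere, at chr4:151707751-151708000, rose by 12.0 points in CTR KD (q = 1.91e-09) and by 9.24 points in YAP KD (q = 2.74e-05).

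Other genes of the translation machinery were set beside the members. Windows of mitochondrial ribosomal protein genes, which serve the organelle's own ribosome, gave 1 called gain among 155 in CTR KD (Mrpl45, 11.2 points) and 1 called loss among 144 in YAP KD (Mrps23, -13.4 points). Translation factor genes gave 2 called gains among 202 windows in CTR KD, in Eif4g3 and Eif2c2, and 0 calls among 191 in YAP KD. The Eif4g3 intron window rose by 16.4 points in CTR KD (q = 1.40e-10), differed by -1.08 points in YAP KD (q = 0.687) and was lower in YAP KD at T4 (-10.3 points, q = 0.00323). Genes for ribosome assembly and RNA polymerase I gave 0 calls among 100 windows in CTR KD and 1 called loss among 101 in YAP KD.

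The promoters, at which little changed, were described by sequence. In the RefSeq promoter table of GRCm38.p6, which spans 250 bases before to 50 after each start, 63 of the 84 genes matched with 75 promoters. They held a median of 22 CpGs, against 13 over 21263 promoters of 17492 genes, with a ratio of observed to expected CpGs of 0.868 against 0.567. On either strand the ETS core CCGGAA occurred in 46.7% of member promoters and 18.7% of all promoters, the YY1 core AAGATGGC in 10.7% and 3.05%, and the GC box GGGCGG in 60.0% and 46.2%. The core GGAATG of the TEAD factors, the DNA-binding partners of YAP, occurred in 9.33% and 13.6%, and it can overlap the ETS core by 4 letters. Mitochondrial ribosomal protein promoters held CCGGAA in 57.3% and GGAATG in 10.7%. These matches are descriptions of letters and not of bound sites.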

How the data were processed

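Bisulfite libraries from 8 samples (2 per group, capture-enriched DNA, independent experiments by the study's methods) were analysed through 4 tables of group comparisons. The authors trimmed reads (Trim Galore), aligned them to mm9 and called methylation (Bismark with Bowtie2), and left out positions under 6 reads. They compared groups with methylKit in windows of 250 bases every 125 bases. The deposited columns are, per window, the p-value, the q-value and a methylation difference, a score in percentage points. These group comparisons are the only values used here, and depth per window is unknown.

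Windows were assigned with GENCODE M1. The SE is the size of the difference over the two-sided normal deviate that matches its p-value. The z test compared the YAP KD and CTR KD changes. It was also run on simulated data drawn with the same derived SEs and with independent windows. That run cannot show whether the derived SEs are too small. Over the 37980 windows in all 4 tables, the knockdown differences (T4 minus T0) matched the differentiation differences (YAP KD minus CTR KD) within 0.5 points at 93.4%. Among member windows 235 of 239 matched. The match fixes the signs of the 4 comparisons relative to each other. It would hold equally with every sign reversed, so it cannot fix their common direction, which was taken as defined above. Similar sequences were found with blastn 2.17.0 (at least 100 bases at 90% identity) and by 31-mer counts in the genome. Python 3.11.15 with scipy 1.17.1 was used.

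Windows were named when called, when past the z test, when among the largest at q at or below 0.05, or as paralogs and X-linked genes. The windows outside the rule and the compared genes named were chosen after their values were seen, and some items are not reported here. The members and lists were chosen with earlier results of these data known. Alternatives covered thresholds, overlapping windows, repeated sequence, assignment to genes and the SE. As no table holds a value per replicate, p-values measure only the error that methylKit saw within these pairs of samples.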

Additional observations from a re-analysis of the deposited data

Results flagged for a closer look

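The differentiation change differed between YAP KD and CTR KD at 4 of 243 ribosomal protein gene windows by the z test (FDR at or below 0.05 over all windows). Of all 38549 windows tested, 1.28% passed, so the member count lies near the share of all windows. In Rpl35a the YAP KD change was lower, with differences of -7.99 points at the coding exon window and -6.90 points at the window overlapping it. In Rpl3 it was higher, with differences of 7.31 and 5.70 points at 2 overlapping windows. Each pair shares reads, so these are 2 sites. With doubled standard errors, the unadjusted p was 0.0463 and 0.0577 in Rpl35a and 0.0498 and 0.0652 in Rpl3. Estimated instead from the knockdown tables, the second Rpl35a difference was -5.84 points (FDR = 0.0914) and those of Rpl3 had FDR values of 0.0145 and 0.0272. All 4 windows have sequences at 90% identity or more elsewhere in the genome, and the part of those copies in the differences was not tested.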

How the results depend on the processing

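The median differences of the member windows moved by less than the spread between windows under every alternative run in the 4 comparisons, but lay so near 0 that the T4 median of -0.05 points was 0.0052 with every second window. No called window changed direction. Counts of called windows depended on the choices. In CTR KD differentiation the 7 called windows became 18 with no minimum difference, 2 over 20 points, 4 as merged regions, 4 with every second window, 0 within 1000 bases of the TSS, 3 among windows in all 4 tables and 3 without windows that have similar sequence elsewhere. The last 3 were the BC032203 pair, which lies outside Rpl7l1, and the Rpl31 intron window. The CpGs of that intron window all lie in the overlapping exon window, which has similar sequence elsewhere. In YAP KD differentiation the 3 became 22 with no minimum difference, 0 over 20 points, 1 within 1000 bases, 5 when only protein-coding TSSs competed, 1 among windows in all 4 tables and 1 without similar sequence. The window left without similar sequence was the Rpl39l loss. At T0 the 0 became 2 with no minimum difference. At T4 the 0 became 1 with no minimum difference, and 2 either inside the bodies of member genes or when only protein-coding TSSs competed, both in Rpl3. Of the 4 windows past the z test, 0 passed with doubled standard errors, a setting at which 0 of all windows passed. The route through the knockdown tables left 2. Among windows whose 31-mers have a median genome count of 1 (a measure that allows partial copies), 2 passed. With every second window 2 passed, and 0 did at an FDR of 0.01. The restriction to windows without similar sequence, and the counting of any transcript type of a member gene, were added after seeing the data. No paired analysis was possible because the tables hold no replicate columns, and for the same reason no replicate could be left out. Depth per window is unknown, so small differences cannot be separated from shallow coverage.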
